A study of Mus musculus with 12 samples.

Results

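The cells described here were CD49b+ glia of the mouse gut, sorted 1 per well, from mice that had or had not been irradiated, with stray neurons left out. A well was kept if it held at least 1000 and fewer than 10000 UMIs (unique molecular identifiers, which count captured RNA molecules), at least 500 genes and under 20% of UMIs from mitochondrial genes. Of 575 CD49b+ wells 432 were kept, out of 1150 wells in the whole series. The kept wells came from 6 plates, and their counts were added up per plate, so that each comparison set 3 irradiated plates against 3 homeostasis plates.

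All mice were C57BL/6 and carried a Dclk1-tdTom label switched on by tamoxifen (3 mg), and tdTom+ cells were sorted from the LMMP (longitudinal muscle with myenteric plexus) by CD49b, the integrin alpha 2 chain. The label follows Dclk1 activity, so these cells are a selected set and not enteric glia at large. Tissue was collected 10 days after tamoxifen in both groups. The irradiated mice had received 10.5 Gy 7 days after tamoxifen, 3 days before collection, and the labels do not say whether the whole body was exposed. Tamoxifen was given at 8 weeks of age for homeostasis replicates 1 and 3 and irradiated replicate 1, and at 9 weeks for the other plates. Each plate pooled 2 mice, so a group held 6 mice, and the same pools also filled a CD49b- plate each, labelled as neuronal cells. Replicates were numbered here in the order of deposit.

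Enteric glia surround the neurons of the gut wall, pass signals to them and to immune cells, and are marked by S100b and Gfap. After injury or infection, glia of the gut and astrocytes of the brain can enter a reactive state with intermediate filament, acute phase and antigen presentation genes. Ionizing radiation breaks DNA and, through p53, switches on the cell cycle inhibitor gene Cdkn1a. Interferons switch on antiviral genes, complement regulators and the MHC genes, whose class I and class II products show peptides to T cells.

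The kept wells held glia by their markers. All 432 wells had a UMI of at least 1 of 12 enteric glia markers, and in no well did neuron marker UMIs outnumber them. The summed glia markers lay at 4218 to 4999 CPM (UMIs scaled to a common total per plate, here over all genes) on the homeostasis plates and at 4445 to 4915 CPM on the irradiated plates. Of 10 macrophage and dendritic cell markers, 7 were at 0 on all 6 plates, among them Ptprc, Adgre1, Csf1r and Tyrobp, and the list held 5 UMIs in total (0 to 5.74 CPM at homeostasis, 4.86 to 6.64 CPM after irradiation). All 7 lymphocyte markers were at 0. Pericyte markers, 3 of 5 of them at 0, summed to 21 to 39.2 CPM at homeostasis and 0 to 13.3 CPM after irradiation, and smooth muscle markers, 1 of 8 at 0, to 184 to 465 and 146 to 300.2 CPM.

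Neuron markers, 1 of 12 at 0, summed to 163 to 202 CPM on the homeostasis plates and to 682, 301 and 186 CPM on irradiated replicates 1, 2 and 3. The 4 wells that the UMI limit left out were on irradiated replicates 1 (24748 UMIs) and 2 (11627, 12699 and 13170 UMIs), and held 67 to 213 neuron marker UMIs against 3 to 13 glia marker UMIs. The fullest kept wells of those plates held 3542 and 3654 UMIs, with 13 and 10 glia and 4 and 3 neuron marker UMIs. Irradiated replicate 1 also stood farthest from the plates of its own group, with a mean leading log2 distance of 1.63 against 1.33 to 1.45 for the other plates. Irradiated replicates 1, 2 and 3 lay about as far from the homeostasis plates (1.64, 1.39 and 1.45) as from their own group (1.63, 1.39 and 1.45). Homeostasis plates were nearer to their own group (1.33 to 1.4) than to the irradiated plates (1.46 to 1.53).

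Depth and yield overlapped between the groups. The plates held 154993 to 245922 UMIs in all wells and 150561 to 205844 in kept wells. The median kept well held 2466 ± 129 UMIs after irradiation and 2445 ± 298 at homeostasis (SD, n = 3 plates, two-sided exact permutation test, p = 0.9). Wells kept made up 72.8 ± 10.7% and 77.4 ± 6.1% (exact permutation p = 0.5, where 3 against 3 plates cannot go below 0.1).

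Which genes did irradiated CD49b+ glia express more or less? Of 3537 genes tested, 11 were higher after irradiation and none was lower (0.311% of genes called, edgeR quasi-likelihood test, adjusted p below 0.05). At an unadjusted p below 0.05, 166 genes were higher (4.69%) and 100 lower (2.83%), and DESeq2 also called none lower. On simulated counts the test found 49 of 50 genes set 4-fold higher and 37 of 50 set 4-fold lower. Both kinds started from the same baseline levels, so the genes set lower also held fewer UMIs. The gap between them is therefore no measure of direction alone. The 11 were Serpina3n, Fcgr2b, Serping1, Slc14a1, Bst2, Npy, Ggta1, H2-Aa, Tmem176a, Cdkn1a and Tmem176b. For each of them all 3 irradiated plates lay above all 3 homeostasis plates, as they did for 6.45% of all genes tested. The median log2 fold change over all tested genes was 0.01.

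**Figure D1:**
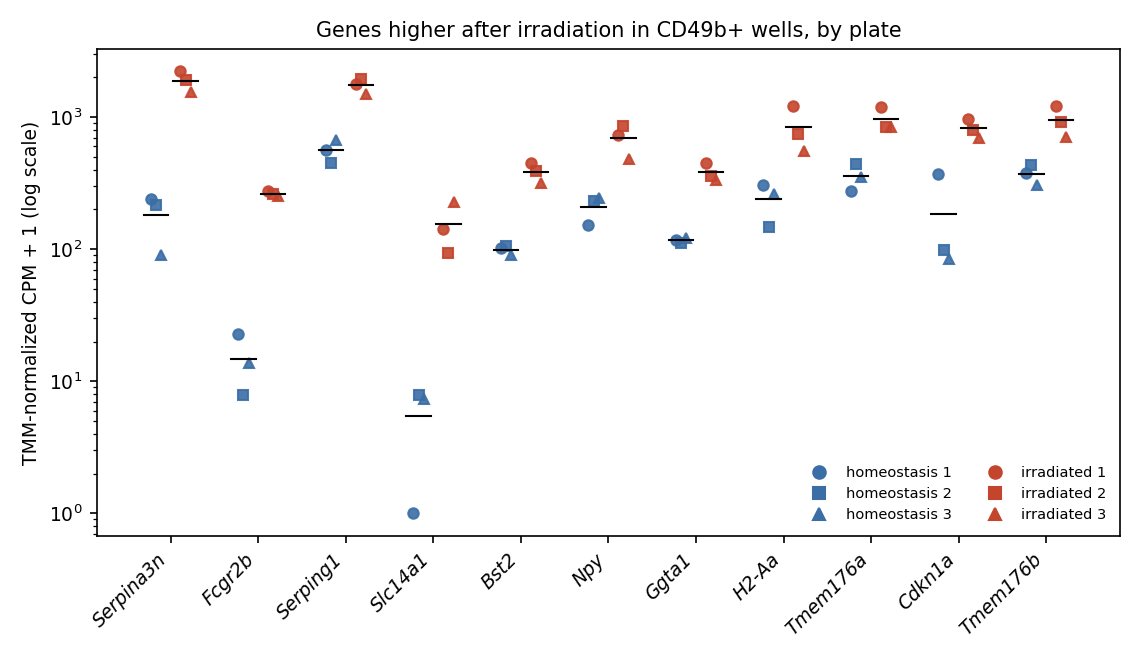
Level of the 11 called genes on each plate, as TMM-normalized CPM + 1 on a log axis, homeostasis in blue and irradiated in red, with the replicate as the marker shape and the group mean of CPM + 1 as a black bar. In every gene the red points lie above the blue points, with Fcgr2b at 251 to 274 CPM against 6.95 to 21.8 CPM and Cdkn1a showing 1 homeostasis plate, replicate 1, well above the other 2.

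The promoters of 4 genes are shown because Bst2 and the MHC class II genes were the called or leading members of the interferon and antigen presentation lists. They run from 250 bases before to 50 after the start site (RefSeq, GRCm38.p6), 5′ to 3′ on the gene's strand. Capitals mark matches, on either strand, to the interferon-stimulated response element (ISRE, searched as GAAA, any 2 bases, GAAA), the gamma-activated site (GAS, searched as TTC, any 3 bases, GAA) or CCAAT.
Bst2, chr8:71537423-71537722, minus strand: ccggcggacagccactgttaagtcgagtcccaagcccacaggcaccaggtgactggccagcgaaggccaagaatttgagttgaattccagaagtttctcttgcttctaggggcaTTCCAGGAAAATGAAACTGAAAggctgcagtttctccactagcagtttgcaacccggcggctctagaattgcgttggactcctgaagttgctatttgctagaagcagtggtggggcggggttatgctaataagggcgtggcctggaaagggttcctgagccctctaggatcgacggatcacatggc
H2-Aa, chr17:34287774-34288073, minus strand: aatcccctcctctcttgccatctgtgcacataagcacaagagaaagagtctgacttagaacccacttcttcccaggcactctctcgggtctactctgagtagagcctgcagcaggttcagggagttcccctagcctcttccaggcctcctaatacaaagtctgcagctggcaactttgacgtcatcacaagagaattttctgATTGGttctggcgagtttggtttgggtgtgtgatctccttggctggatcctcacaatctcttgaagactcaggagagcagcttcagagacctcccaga
H2-Eb1, chr17:34305617-34305916, plus strand: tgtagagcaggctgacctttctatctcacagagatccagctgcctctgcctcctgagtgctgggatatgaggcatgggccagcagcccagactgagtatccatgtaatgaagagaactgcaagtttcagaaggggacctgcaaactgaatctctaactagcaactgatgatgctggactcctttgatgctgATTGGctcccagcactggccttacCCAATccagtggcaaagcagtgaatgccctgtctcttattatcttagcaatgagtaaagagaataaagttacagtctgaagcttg
H2-DMb1, chr17:34152941-34153240, plus strand: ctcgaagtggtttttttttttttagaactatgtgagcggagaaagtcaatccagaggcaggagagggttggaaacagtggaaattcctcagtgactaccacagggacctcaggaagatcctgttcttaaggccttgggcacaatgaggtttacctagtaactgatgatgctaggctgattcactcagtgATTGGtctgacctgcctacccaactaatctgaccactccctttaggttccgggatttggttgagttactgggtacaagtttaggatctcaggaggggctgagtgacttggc

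Bst2 had 2 overlapping ISRE matches, 130 and 124 bases before the start site, and a GAS match that overlaps the first of them, 136 bases before it. Over all 32851 promoters of that length, 3.44% held an ISRE match and 8.3% a GAS match. The 3 class II promoters had no ISRE or GAS match and each had a CCAAT match, which 37.4% of promoters hold, between 35 and 61 bases before the start site. Of the 11 called genes 9 were in the promoter table, and 1 of the 9 held an ISRE match, 1 a GAS match and 2 a CCAAT match. Counted per gene in the same way, 4.64, 8.28 and 44.5% of 2113 tested genes held such a match. Among members that did not pass the test, Gbp2 had an ISRE match 59 bases before the start site. Psmb8 and Gfap had a GAS match 97 and 2 bases before it. Ifitm3 had its matches after the start site, to the ISRE at positions 2 and 19 and to the GAS at position 13. These matches describe letters only, and binding was not measured.

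Serpina3n encodes a secreted inhibitor of serine proteases and is a widely used marker of reactive astrocytes. It was at 239.9, 215 and 89.1 normalized CPM on homeostasis replicates 1, 2 and 3, and at 2221, 1899 and 1545 CPM on irradiated replicates 1, 2 and 3. The lowest irradiated plate was thus far above the highest homeostasis plate. The log2 fold change was 3.38 (SE 0.32, edgeR adjusted p = 3.69e-05). The gene lies at 12:104406729-104414329 (GRCm38, plus strand), among a cluster of close relatives, and 21.6% of the 31-base words in its transcripts also occur in transcripts of other genes. Of 2 relatives in the lists, Serpina3m was at 0 on all plates and Serpina3i had 5 UMIs at homeostasis and 22 after irradiation, so how reads were divided within the cluster is uncertain.

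Fcgr2b and Serping1, of antibody recognition and complement, rose.
Fcgr2b encodes the inhibitory receptor for IgG, usually studied on B cells and macrophages, and lies at 1:170958617-170976547. It had 3, 1 and 2 UMIs on the homeostasis plates and 33, 42 and 30 on the irradiated plates, which is 6.95 to 21.8 against 251 to 274 CPM (log2 fold change 4.17, SE 0.46, edgeR adjusted p = 0.000153). The irradiated plates were close together, with a mean of 262 ± 12 CPM (SD, n = 3). Its transcripts share 8.15% of their 31-base words with other genes, the largest part (4.15%) with Fcgr3, which was at 0 on all 6 plates, and its exons overlap Gm38204 on the other strand. Serping1 encodes C1 inhibitor, which holds the first complement proteases in check, at 2:84765387-84775444. Its CPM was 559.7, 452 and 668 at homeostasis and 1797, 1936 and 1487 after irradiation (log2 fold change 1.63, SE 0.24, edgeR adjusted p = 0.00422), with no overlap, and no 31-base word of its transcripts occurs in another gene.

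The other tested genes of the complement and Fc receptor list gave no call. Of its 16 genes 5 were tested, only Fcgr2b and Serping1 passed, and none was lower. With these 2 included, all 5 had a positive log2 fold change, against 51.3% of all tested genes, with a median of 0.63. C4b, a complement component, and Cd59a, an inhibitor of the final pore, had log2 fold changes of 0.41 and 0.63 (edgeR adjusted p = 0.908 and 0.51). Of the classical pathway, C1ra was too low to test, with 4 UMIs at homeostasis and 27 after irradiation, of which 18 were on replicate 2. C3 had 7 UMIs, all on irradiated replicate 2.

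Among MHC class II genes H2-Aa rose, and the list had the highest median of the gene lists. All 6 tested genes of the 13 in the list had a log2 fold change above 1, each with an unadjusted p below 0.05, and 1 passed the adjusted test. Their median log2 fold change was 1.45. Over all tested genes 51.3% had a positive log2 fold change and 4.69% were higher at an unadjusted p below 0.05.
H2-Aa, the class II alpha chain (17:34282744-34287823), was at 305, 146 and 261 CPM at homeostasis and at 1206, 751 and 551 CPM after irradiation (log2 fold change 1.81, SE 0.33, edgeR adjusted p = 0.0197). The homeostasis plates all held H2-Aa, and irradiated replicate 1 was the highest. For H2-Eb1, a beta chain, homeostasis plates held 414, 327 and 426 CPM and irradiated plates 1863, 782 and 727 CPM (log2 fold change 1.52, adjusted p = 0.0611 by edgeR). H2-DMb1, part of the peptide loading factor, had 138, 90.3 and 114.5 against 433, 217 and 301 CPM (log2 fold change 1.45, adjusted p = 0.11). Neither passed in edgeR, and DESeq2 called H2-Eb1 (adjusted p = 0.00941). The plates of both did not overlap, as for 6.45% of all tested genes on the higher side.

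The other tested class II genes were H2-Ab1, H2-DMa and Cd74, the invariant chain. H2-Ab1 had 173, 101 and 173 UMIs at homeostasis and 608, 279 and 194 after irradiation (log2 fold change 1.46, edgeR adjusted p = 0.143). Cd74 and H2-DMa had log2 fold changes of 1.07 and 1.16 (adjusted p = 0.334 and 0.475), and their plates overlapped. The summed class II list reached 8369 CPM on irradiated replicate 1, 3585 and 3619.8 CPM on replicates 2 and 3, and 1422 to 2537 CPM at homeostasis, so replicate 1 stood apart from its group. Without that plate H2-Aa still passed (log2 fold change 1.46, adjusted p = 0.0316), and H2-Eb1 was at 0.95 (adjusted p = 0.141). The costimulatory genes Cd80 and Cd86 were at 0 on all plates, Cd40 had 2 UMIs in total, and Ciita, the master switch of class II genes, had 1 UMI at homeostasis and 6 after irradiation. Markers of macrophages and dendritic cells, which also present through class II, were at or near 0 on the same plates.

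MHC class I and its peptide supply gave no call in edgeR, while DESeq2 called H2-T23 and Psmb8 (DESeq2 adjusted p = 0.0495 and 0.0214). Of 22 genes 18 were tested, and all 18 log2 fold changes were positive, against 51.3% over all tested genes, with a median of 0.45. Their range was 0.14 to 1.44. H2-T23, a nonclassical class I chain, had 138, 111.2 and 134 CPM at homeostasis and 374, 416 and 251 CPM after irradiation (log2 fold change 1.44, edgeR adjusted p = 0.0611). Psmb8, an immunoproteasome subunit, had 363, 382 and 267 against 1048, 844 and 559.6 CPM (log2 fold change 1.28, adjusted p = 0.0629). In both genes the groups were apart, as in 6.45% of all tested genes on the higher side. The classical chains H2-K1 and H2-D1 overlapped, with log2 fold changes of 0.39 and 0.20 (edgeR adjusted p = 0.869 and 0.952).

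Of the interferon-stimulated genes, 19 of 30 were tested, 1 passed in edgeR and none was lower. All 19 had a positive log2 fold change, from 0.38 to 2.25, with a median of 0.85, and 12 had an unadjusted p below 0.05. Over all tested genes 51.3% were positive and 4.69% were higher at that p.
Bst2 encodes tetherin, which holds budding virus particles on the cell surface, at 8:71534255-71537456. Homeostasis plates held 102, 104 and 89.1 CPM and irradiated plates 449, 391 and 317 CPM (log2 fold change 1.97, SE 0.31, edgeR adjusted p = 0.00553). The spread within each group was small beside the gap. Ifitm3, a membrane protein that blocks virus entry, missed the threshold in edgeR with 2908, 2453 and 2857 against 7611, 6101 and 3959 CPM (log2 fold change 1.10, adjusted p = 0.0611), and passed in DESeq2 (adjusted p = 0.0106). Zbp1, a sensor of left-handed nucleic acids, also missed it, with 4, 10 and 2 UMIs against 23, 39 and 11 (log2 fold change 2.25, adjusted p = 0.105). Ifi27l2a of the same list was called by DESeq2 only (log2 fold change 1.55, DESeq2 adjusted p = 0.042).

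The classical antiviral genes did not order the plates the same way. Isg15 and Oasl2 had log2 fold changes of 0.85 and 1.05 (edgeR adjusted p = 0.418 and 0.435), with their highest level on irradiated replicate 2. The class II genes and Ifitm3 were highest on irradiated replicate 1. Ifi44 and Usp18 were at 0 on all plates and Mx1 had 1 UMI.

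The interferon-gamma pathway list gave no call. Of 22 genes 11 were tested, 8 had a positive log2 fold change, the median was 0.70, and 3 were higher and none lower at an unadjusted p below 0.05. Over all tested genes 51.3% were positive, and 4.69% were higher and 2.83% lower at that p. Gbp2, a guanylate-binding protein of cell defence, was at 189, 83.4 and 120.9 CPM at homeostasis and 283, 459 and 267 CPM after irradiation (log2 fold change 1.37, edgeR adjusted p = 0.153). Igtp and Iigp1, related GTPases, had log2 fold changes of 0.89 and 0.98 (adjusted p = 0.514 and 0.594) and overlapping plates. Irf1, which encodes an early factor of the pathway, and the receptor gene Ifngr1 had log2 fold changes of -0.01 and -0.32.

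**Figure D2:**
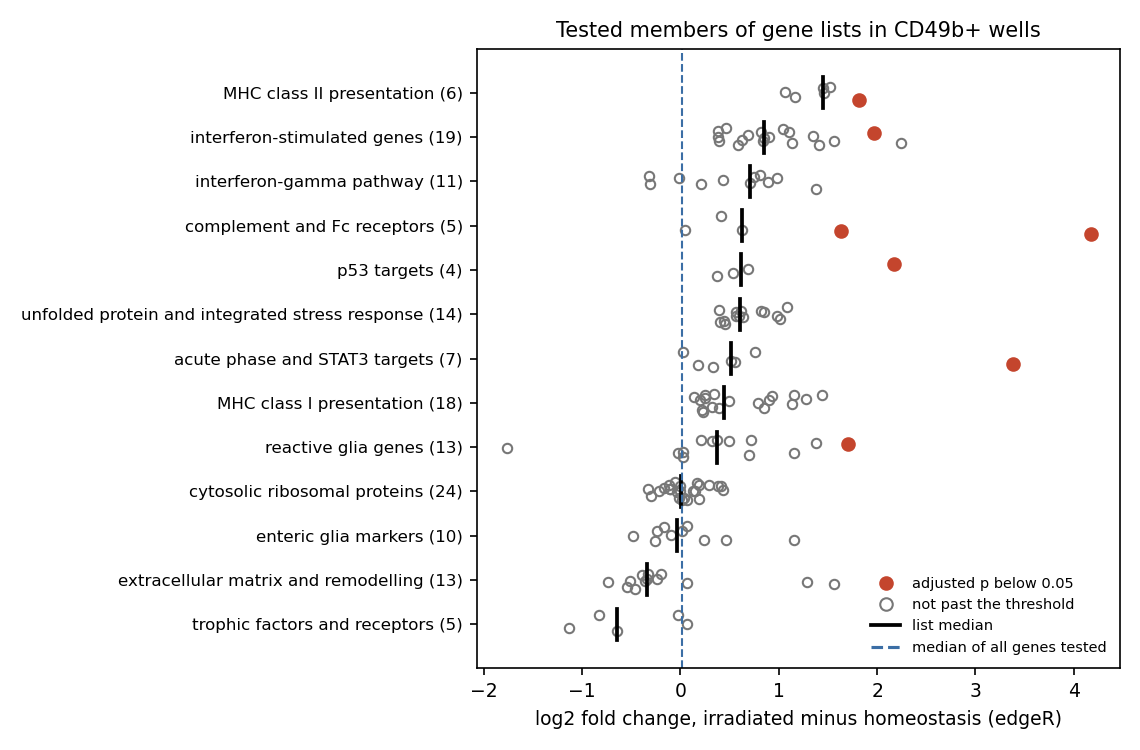
Log2 fold change (irradiated minus homeostasis, edgeR) of each tested member of 13 gene lists, with the number tested in brackets. Filled red points passed the test, open grey points did not, black bars are list medians and the dashed blue line is the median of all tested genes (0.01). The class II list has the highest median (1.45) of those drawn and trophic factors the lowest (-0.65).

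Cdkn1a, the p53 target that halts the cell cycle, rose. It lies at 17:29090976-29100727. It was at 371, 97.3 and 82.7 CPM at homeostasis and at 973, 794 and 693 CPM after irradiation (log2 fold change 2.17, SE 0.42, edgeR adjusted p = 0.0272). Homeostasis replicate 1 was well above the other homeostasis plates and still below every irradiated plate. Its exons overlap AC167363.2 on the other strand, and whether the counting used strand is not given in the sources used here. On homeostasis replicate 3, 6 of its 13 UMIs came from 1 well.

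Few other p53 targets were measurable. Of 26 genes in the list 4 were tested, and the other 3 were Bax, Phlda3 and Btg2, with log2 fold changes of 0.54, 0.69 and 0.38 (edgeR adjusted p = 0.908, 0.925 and 0.908) and overlapping plates. The median of the 4 was 0.61. Mdm2 and Ccng1, standard targets below the test's count limit, had 11 and 15 UMIs at homeostasis and 16 and 19 after irradiation. Pmaip1 and Eda2r were at 0, Bbc3 had 0 and 3 UMIs, and Gdf15 had 0 and 7. At this depth a change in most p53 targets could not have been detected.

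Cell cycle, repair and cell death genes gave no call. Of 22 cell cycle genes 3 were tested, Ccnd2, Ccnd3 and Cdk4, and Mki67 and Top2a had 1 and 3 UMIs over all 6 plates. Of 21 DNA damage and repair genes 1 was tested, Trp53 itself (log2 fold change 0.43, edgeR adjusted p = 0.952), and of 17 apoptosis genes 3, all negative, from -0.56 to -0.25. None of the 7 passed.

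Ggta1 and Gfap represented the reactive glia list. Ggta1 encodes the enzyme that adds alpha-galactose caps to sugar chains, at 2:35400179-35463231. It was at 116.3, 111.2 and 120.9 CPM at homeostasis and at 449, 360.0 and 334 CPM after irradiation (log2 fold change 1.70, SE 0.30, edgeR adjusted p = 0.0139), and the homeostasis plates were nearly equal. Gfap, the intermediate filament of glia, had 552, 577 and 541 against 981, 1117 and 1620.4 CPM (log2 fold change 1.15, adjusted p = 0.0611), missing the edgeR threshold without overlap. Of 26 genes in the list 13 were tested, Ggta1 alone passed, 11 were positive (51.3% of all tested genes were), and the median was 0.38. Vim and Nes, other filament genes, had log2 fold changes of 0.32 and -0.03. Cd14 had the lowest value of the list, -1.77 (edgeR adjusted p = 0.67). Its plates overlapped, with 24, 1 and 112 UMIs at homeostasis and 22, 12 and 1 after irradiation.

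The other called genes belong to none of the response lists. Slc14a1, a urea transporter gene, had 0, 1 and 1 UMIs at homeostasis and 17, 15 and 27 after irradiation (edgeR adjusted p = 0.00422). Per UMI the ratio was 31 with an exact 95% interval of 8.22 to 262, which covers counting error only. The fitted log2 fold change of 4.80 depends on the small counts at homeostasis. The gene lies at 18:78100091-78142119.

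Tmem176a and Tmem176b encode 2 related membrane proteins of intracellular vesicles, from neighbouring genes. Tmem176a was at 276, 438 and 349.9 CPM at homeostasis and at 1198, 844 and 835 CPM after irradiation (log2 fold change 1.43, SE 0.26, edgeR adjusted p = 0.0197). Tmem176b was at 378, 431 and 305 CPM and then at 1223, 919 and 710.0 CPM (log2 fold change 1.35, SE 0.27, edgeR adjusted p = 0.0319). The 2 genes moved alike, and their exons overlap on opposite strands (6:48840919-48847071 and 6:48833818-48841496), so without strand their reads cannot be fully told apart. Both are also expressed in the CD49b- neurons, at 210.0 to 406 and 514 to 865 CPM.

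Npy encodes neuropeptide Y, a transmitter peptide of enteric neurons, at 6:49822710-49829507. It was at 153, 229 and 242 CPM at homeostasis and at 732, 856 and 484 CPM after irradiation (log2 fold change 1.73, SE 0.30, edgeR adjusted p = 0.0138), with no overlap. In CD49b- wells it was at 721 to 1511 CPM. The stray neuron wells left out of irradiated replicates 1 and 2 held 1 and 0 Npy UMIs, against 88 and 138 in the kept wells of those plates. Irradiated replicate 3 had no stray well, with neuron markers at 186 CPM. The part of neuron RNA in the Npy values was not tested.

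Other neuron transcripts behaved differently from Npy. Gal, which encodes galanin, had 4643 UMIs in the 3 stray wells of irradiated replicate 2 and 1466 UMIs spread over all 81 of its kept wells, with 5 and 3 UMIs on the other irradiated plates and 18 at homeostasis. Resp18, a gene of secretory granules, had 95 and 200 UMIs in the stray wells of replicates 1 and 2, and 92 and 62 in their kept wells. Replicate 3, with no stray well, had 0 Resp18 UMIs, and the homeostasis plates had 1. Stmn2 and Snap25 were also at 0 in the kept wells of replicate 3. With every well of 3 or more neuron marker UMIs left out, all 11 genes remained called, Npy with a log2 fold change of 1.71 (edgeR adjusted p = 0.0116). This filter cannot remove RNA spread over the wells of a plate, as Gal was on replicate 2. The source of the Npy RNA was therefore not tested by it.

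How widely the called genes were spread over wells was described after thinning each well to 1000 UMIs, which left out no kept well. A UMI of Serpina3n was found in 16, 14.3 and 2.78% of wells at homeostasis and in 66.2, 64.2 and 65% after irradiation. For Fcgr2b the shares were 1.23, 0 and 2.78% (0 of 70 wells allows up to 4.29%, counting error only) against 14.7, 19.8 and 10%, and for Cdkn1a 22.2, 8.57 and 5.56% against 48.5, 33.3 and 43.3%. In all 11 genes the 3 irradiated plates were above the 3 homeostasis plates, with p = 0.1 in each two-sided exact permutation test, the smallest that 3 against 3 plates allow. These shares come from the counts that chose the genes and describe them further. Not thinned, Serpina3n was in 25.6% of wells at homeostasis and 90.7% after irradiation (group means).

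The CD49b- neurons give a background for these shares, at a median of 5904.5 to 8335 UMIs per well against 2110 to 2680 in CD49b+ wells, and thinned to the same 1000 UMIs. Fcgr2b, Slc14a1 and H2-Aa had no UMI in the 528 thinned CD49b- wells, which allows a share of up to 0.568% of wells with a UMI (counting error only, wells of 6 plates pooled). Serpina3n was in 0.427% of CD49b- wells at homeostasis and 2.26% after irradiation, Bst2 in 0.725 and 1.52%, Ggta1 in 0 and 0.375%, Cdkn1a in 1.14 and 3.09% and Serping1 in 7.46 and 6.01%. Npy, Tmem176a and Tmem176b were in 21.2 to 52.4% of CD49b- wells.

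**Figure D3:**
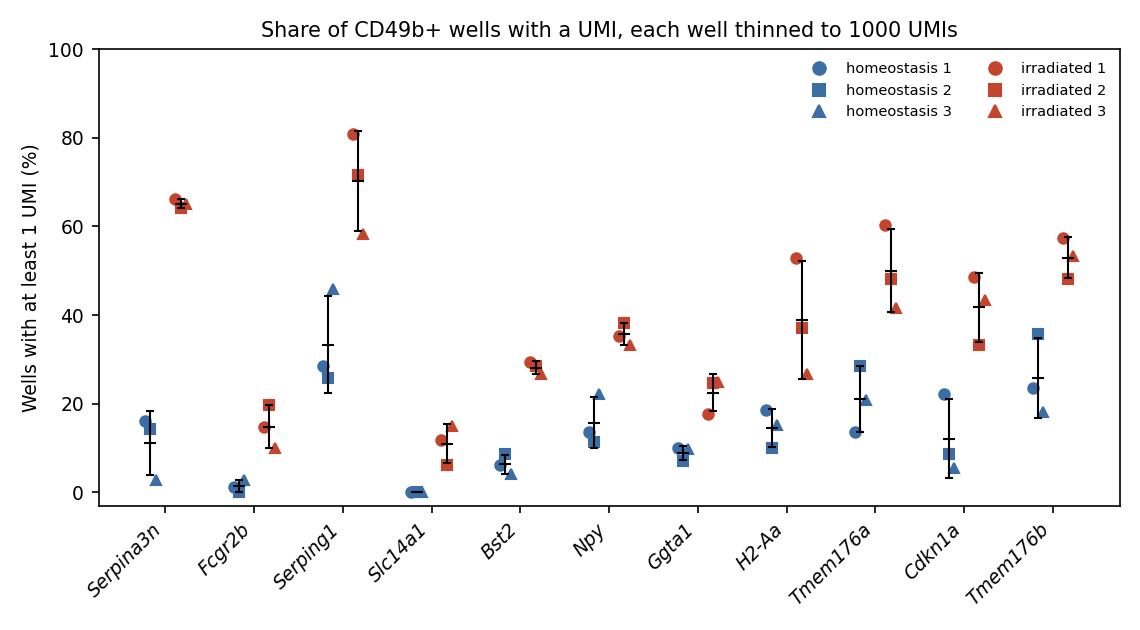
Percentage of CD49b+ wells with at least 1 UMI of each called gene, after thinning every well to 1000 UMIs, by plate (blue homeostasis, red irradiated, marker shape for the replicate), with the group mean ± SD in black (n = 3 plates). All red points lie above the blue points of the same gene, and Serpina3n goes from 2.78 to 16% of wells up to 64.2 to 66.2%.

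The number of the 11 genes with a UMI was also counted per well. The genes were chosen on these same wells, so this is a description and no test, and a UMI in a well need not come from its cell, as Gal on irradiated replicate 2 shows. In the thinned data a homeostasis well had a UMI of 1 of the 11 genes in the median on every plate, and an irradiated well of 5, 4 and 4 genes on replicates 1, 2 and 3. Wells with at least 3 of the 11 genes made up 18.5, 18.6 and 20.8% at homeostasis and 95.6, 81.5 and 81.7% after irradiation. Of the class II list, which includes H2-Aa, 24.7 to 40% of homeostasis wells had no UMI, against 1.47, 9.88 and 11.7% of wells on irradiated replicates 1, 2 and 3. Replicate 1 stood apart in this measure too.

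**Figure D4:**
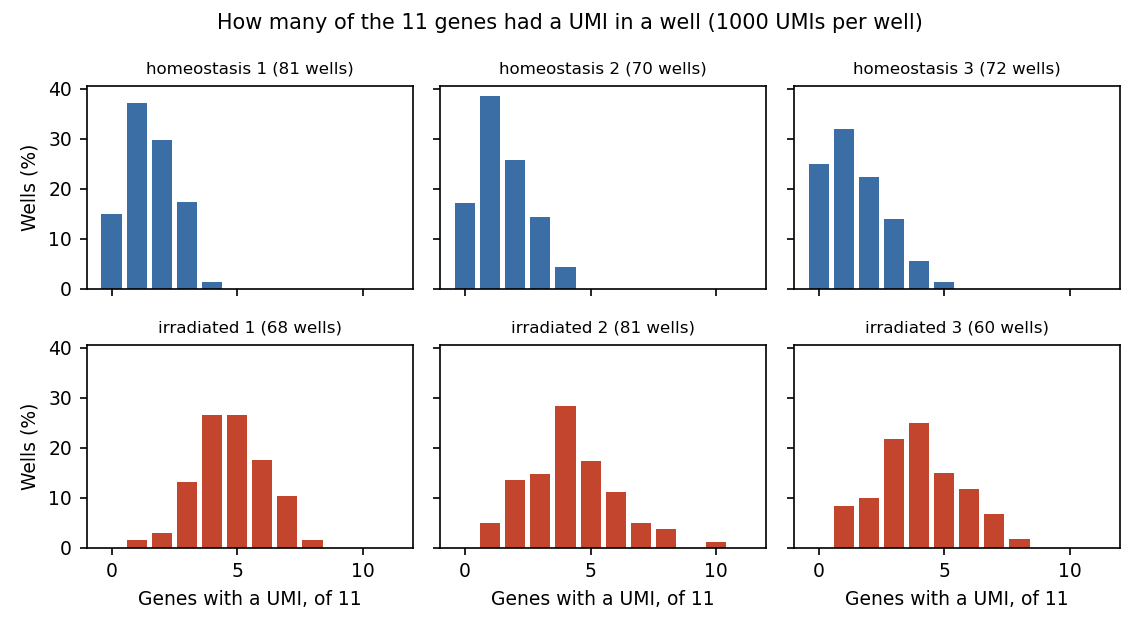
Percentage of wells (y axis) with a UMI of 0 to 11 of the called genes (x axis) on each plate, every well thinned to 1000 UMIs, homeostasis above in blue and irradiated below in red. Homeostasis wells peak at 1 gene and irradiated wells at 4 or 5 genes.

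**Figure D5:**
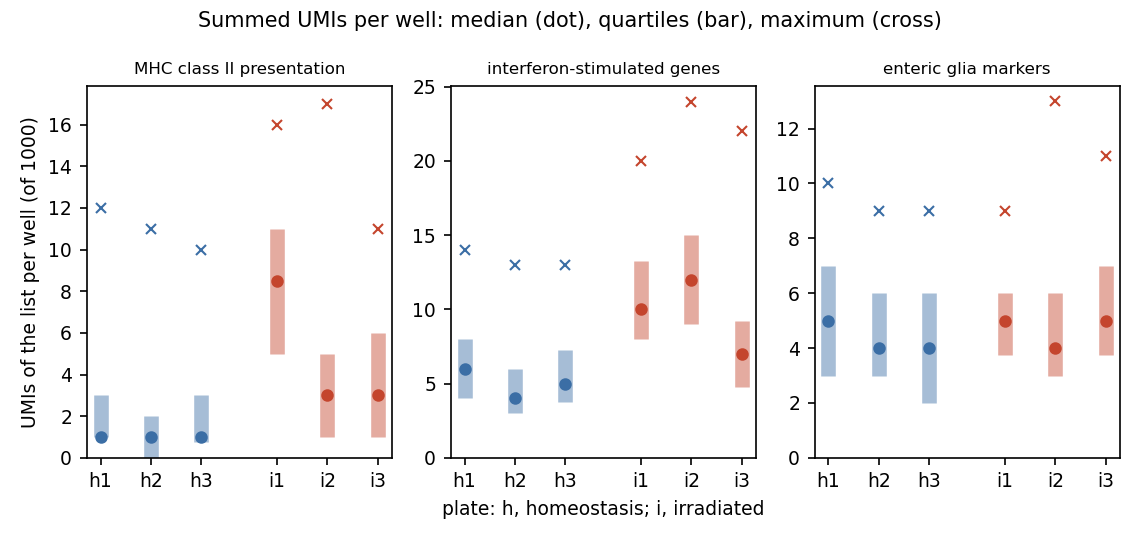
UMIs per well of 3 gene lists, out of 1000 UMIs per well, on the 3 homeostasis (h) and 3 irradiated (i) plates: dots are medians, bars run from the lower to the upper quartile and crosses mark the highest well. Class II medians go from 1 UMI at homeostasis to 8.5, 3 and 3 UMIs after irradiation, interferon-stimulated medians from 4 to 6 up to 7 to 12, and glia marker medians stay at 4 to 5.

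The unfolded protein and integrated stress list had positive values throughout and no call. Of 20 genes 14 were tested, all 14 had a positive log2 fold change, from 0.39 to 1.09, and the median was 0.61. Over all tested genes 51.3% were positive. Manf, a secreted factor of endoplasmic reticulum stress, was at 239.9, 334 and 419.9 CPM at homeostasis and 715, 434 and 986 CPM after irradiation (log2 fold change 1.09, edgeR adjusted p = 0.25). Herpud1, which helps clear misfolded proteins, was at 145, 132 and 223 against 358, 292 and 368 CPM (log2 fold change 1.01, adjusted p = 0.303). Both kept the groups apart, as did 6.45% of all tested genes on the higher side, and both were named for their small p. Hspa5, the main chaperone of that compartment, overlapped, with a log2 fold change of 0.82 (adjusted p = 0.435).

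Metallothioneins and lipid carriers also stood among the higher genes short of the threshold. Mt2, a metal-binding stress protein, was at 1047, 611 and 751 CPM at homeostasis and 1406, 1614 and 1696 CPM after irradiation (log2 fold change 0.97, edgeR adjusted p = 0.143). Mt1 and Mt3 had log2 fold changes of 0.72 and 1.63 (adjusted p = 0.314 and 0.116). Apod, an apolipoprotein of glia, had 1243, 896 and 891 against 1805, 2023 and 1904 CPM (log2 fold change 0.92, adjusted p = 0.137). Cspg5, a chondroitin sulfate proteoglycan gene, had 29.1, 6.95 and 12.7 against 141, 117.9 and 83.5 CPM (log2 fold change 2.77, adjusted p = 0.0611), and the gene model Gm7676 a log2 fold change of 0.96 (adjusted p = 0.0987). Apod, Cspg5 and Gm7676 were called by DESeq2 (DESeq2 adjusted p = 0.0495, 0.0495 and 0.0259). The antioxidant and metallothionein list as a whole had a median of 0.14 over 15 tested genes, and lipid handling 0.07 over 13.

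On the lower side no gene passed, and among lists with at least 5 tested genes the most negative medians were those of trophic and matrix genes. Of 26 matrix genes 13 were tested, 10 had a negative log2 fold change and the median was -0.34, where 51.3% of all tested genes were positive. Sparc, a matrix-binding glycoprotein, was at 5648, 5781 and 5605 CPM at homeostasis and at 4059, 4269.8 and 4076 CPM after irradiation (log2 fold change -0.46, edgeR adjusted p = 0.55). The plates within each group were close together and the groups apart, as they were, on the lower side, for 5.63% of all tested genes. Col12a1, a fibril-associated collagen, had 887, 1035 and 839.8 against 566, 428 and 668 CPM (log2 fold change -0.74, adjusted p = 0.375). Mmp17, a membrane-bound protease of the same list, went the other way, with a log2 fold change of 1.57 (adjusted p = 0.25). Fibroblast markers on the same plates, 3 of 7 at 0, summed to 115.7 to 201 CPM at homeostasis and 92.3 to 144 CPM after irradiation, and their part in the matrix values was not tested.

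Tgfb2, which encodes a TGF-beta growth factor, was at 1090.3, 896 and 909.8 CPM at homeostasis and 607, 645 and 593 CPM after irradiation (log2 fold change -0.65, edgeR adjusted p = 0.418). Gdnf, Nrtn and Cntf, trophic factors of neurons, were at 0 on all plates, and 5 of 22 trophic genes were tested, with a median of -0.65. Ednrb, the endothelin receptor of the neural crest lineage, was at 996, 938 and 1113 against 333, 769.6 and 652 CPM (log2 fold change -0.79, adjusted p = 0.435). The smallest adjusted p on the lower side was that of Slc35a2, a carrier of UDP-galactose into the Golgi, with 102, 153 and 191 against 25, 49.6 and 25.1 CPM (log2 fold change -2.09, adjusted p = 0.0752). The next by p were Ptx4, at 87.2, 125 and 146 against 49.9, 12.4 and 8.35 CPM (log2 fold change -2.36, adjusted p = 0.141), and Ctgf.
Ctgf, a matricellular target of YAP, had 283, 271 and 229 against 66.5, 62.1 and 159 CPM (log2 fold change -1.46, adjusted p = 0.166). Both kept the groups apart. Brix1 and Nop58, of ribosome and snoRNP assembly, had log2 fold changes of -1.75 and -1.47. Dpysl2, a microtubule-binding protein gene, Naaa, a lysosomal amidase gene, and Heyl, a Notch target, had values of -1.02, -0.96 and -1.59, and the gene models Gm12892 and C330006A16Rik of -1.25 and -1.50, with edgeR adjusted p from 0.195 to 0.315 over these 7 genes. Only Heyl overlapped between groups among the 7. Ptx4, Ctgf and these 7 genes were named for their small p in these data, which favours a lack of overlap. Wholly lower irradiated plates were found for 5.63% of all tested genes.

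Few chemokine and cytokine genes were measurable. Of 22 genes 3 were tested, Ccl2, Cxcl1 and Cxcl10, with log2 fold changes of 0.73, -0.20 and 0.05 (edgeR adjusted p = 0.952, 0.987 and 0.996). Ccl2, which draws monocytes, varied more between homeostasis plates, at 109, 0 and 738 CPM, than between the groups. Genes at 0 on all 6 plates numbered 11, among them Il1b, Tnf and Il33.

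No glia marker passed the edgeR test, and DESeq2 called Gfap (log2 fold change 1.15, DESeq2 adjusted p = 0.0135). S100b was at 1730.0, 1341 and 1349 CPM at homeostasis and at 1639, 1036 and 1019 CPM after irradiation (log2 fold change -0.26, edgeR adjusted p = 0.946), and Apoe, an apolipoprotein, at 37209, 34513 and 37599.9 against 37013, 33730.3 and 30228 CPM (log2 fold change -0.11, adjusted p = 0.957). Of 12 glia markers 10 were tested, 5 were positive, and the median was -0.04. Dclk1, whose activity labelled the cells, was at 80.0, 111.2 and 102 against 66.5, 68.3 and 58.5 CPM (log2 fold change -0.59, adjusted p = 0.908), and Itga2, which encodes CD49b, had 11 UMIs at homeostasis and 13 after irradiation, too few to test. Ribosomal protein genes, 24 tested, had a median of 0.00, nuclear respiratory chain genes, 19 tested, of 0.14, and immediate early genes, which also respond to tissue dissociation, of 0.21 over 20 tested. None of these passed.

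Did the response of CD49b+ glia differ from that of CD49b- neurons of the same mice? For irradiation in the neurons, 3 of 8230 genes passed in the edgeR fit of all 12 plates (0.0365%). The test of the difference called none of 8230 genes (edgeR interaction over 12 plates, 0% called), with 459 genes (5.58%) at an unadjusted p below 0.05, and DESeq2 called 1, Klf6, a stress-responsive transcription factor gene (edgeR difference in log2 fold change 1.43, adjusted p = 0.154). With the pool of mice as a replicate block, 2 genes were called, Npy (difference in log2 fold change 1.92, adjusted p = 0.0124) and Resp18 (6.96, adjusted p = 0.00319). Resp18 is the granule gene that the stray neuron wells held. In the fit of 12 plates Npy had a log2 fold change of 1.75 in CD49b+ glia and -0.14 in CD49b- neurons, a difference of 1.90 (SE 0.43, adjusted p = 0.311 without the block). For Serpina3n the difference was 1.92 (SE 0.54, adjusted p = 0.523) at 6.94 to 39.3 CPM in the neurons. Serpina3n, Bst2 and Cdkn1a also had positive log2 fold changes in the neurons, of 1.49, 1.46 and 1.35. None of these passed there (edgeR adjusted p = 0.597, 0.883 and 0.943). Among the called genes only Npy and Slc14a1 had negative values in the neurons (-0.14 and -1.41), Slc14a1 at or near 0 CPM. Fcgr2b was at 0 on all 6 CD49b- plates and H2-Aa at 2.07 CPM on 1 of them and 0 on the rest. A low level in the neurons is not itself a test of a different response. Without irradiated replicate 1 the difference was called for Gal, Npy and Resp18, and without irradiated replicate 3 for Gpx3, Resp18 and Stmn2.

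The labels number the plates of both gates from S1 to S4 in 3 series, which here stand as sets, and do not say whether a series was a batch. The series TM116 to TM119 held only irradiated and TM120 to TM123 only homeostasis plates, and for them set and irradiation cannot be told apart. The series of TM110, TM111, TM114 and TM115 held homeostasis replicate 1 and irradiated replicate 1, 1 plate a side with no replicate. Within it Serpina3n was at 239.9 and 2221 CPM, Bst2 at 102 and 449 CPM, and Cdkn1a at 371 and 973 CPM, a direction that follows from the lack of overlap over all plates. With the series as a term in the fit, the irradiation difference comes from this 1 plate a side alone, so the fit is no separate test. Its log2 fold changes were 3.21 for Serpina3n, 3.601 for Fcgr2b, 1.68 for Serping1, 2.13 for Bst2 and 1.39 for Cdkn1a. Their sign follows from the same lack of overlap.

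Single plates weighed on the calls. Leaving out 1 plate at a time, Serpina3n, Fcgr2b and Serping1 remained called in all 6 fits. Without homeostasis replicate 3, 4 genes were called and Bst2, Npy, Ggta1, H2-Aa, Tmem176a, Cdkn1a and Tmem176b missed the threshold (edgeR adjusted p = 0.066 to 0.292). Without irradiated replicate 2, 5 genes were called and Npy, Ggta1, H2-Aa, Tmem176a, Cdkn1a and Tmem176b were lost (adjusted p = 0.0572 to 0.0969). Without homeostasis replicate 1, 7 were called and Npy, Ggta1, H2-Aa, Tmem176a and Tmem176b were lost (adjusted p = 0.0552 to 0.164). Without homeostasis replicate 2, 9 were called and Ggta1, H2-Aa, Cdkn1a and Tmem176b were lost (adjusted p = 0.0894 to 0.11). Without irradiated replicate 1, 16 genes were higher, with Tmem176b lost (adjusted p = 0.0621), and without irradiated replicate 3, 18 were higher, with Slc14a1 lost (adjusted p = 0.0593). The genes gained included Gal in both of these fits and Resp18 without replicate 3, transcripts that the stray neuron wells held. With age at tamoxifen as a term, 30 genes were higher and 3 lower. All 11 were among them, and the added genes included H2-Eb1, H2-Ab1, Cd74, H2-DMb1, Ifitm3, Gfap and Psmb8.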

How the data were processed

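UMI counts per gene and well were deposited by the authors as 1 table of 1150 wells on 12 plates. Cells were lysed and reverse transcribed in the well, with Nextera XT libraries, per the labels' protocols. The submitters' processing notes list the aligner STAR 2.5.3a and the counter featureCounts 1.5.3, with GRCm38 and also GRCh38 as builds, while strand use, UMI collapsing and the annotation are not given in the sources used here. Gene positions came from GENCODE vM21 (GRCm38).

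Kept wells were summed per plate and tested with edgeR 4.0.16 (R 4.3.3): TMM factors, filterByExpr, quasi-likelihood F test, Benjamini-Hochberg adjustment over all tested genes, threshold 0.05. SE is the log2 fold change divided by the square root of F. CPM per gene uses TMM-scaled totals of tested genes, and summed list CPM uses all UMIs of kept wells. Alternatives used DESeq2 1.42.0 and limma 3.58.1. Wells were thinned with 1 seeded draw. Tested on simulated counts for this comparison (3537 genes), calls were made for 86 of 100 genes simulated with a 4-fold change (49 of 50 higher and 37 of 50 lower), for 21 of 100 with a 2-fold change and for 4 unchanged genes.

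The members and gene lists were chosen with earlier results of these data known. Genes named were all that passed (fewer than 40), the 10 with the smallest p in each direction, and in each list those that passed or up to 4 with the smallest p. Other genes named, all untested ones included, were chosen after their values were seen. Plates of both gates made from the same mice pair the samples of the interaction, and the residuals of paired plates correlated at 0.0968, 0.0424, 0.0595, 0.182, 0.13 and -0.0203 over 8230 genes. In plate sums, fewer cells with a transcript and less of it per cell cannot be told apart, and the shares of wells address this in part. The 95 well barcodes found on every plate mark positions, not shared cells. No doublet caller was run. Some genes are not reported here.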

Additional observations from a re-analysis of the deposited data

How the results depend on the processing

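The count of 11 higher genes moved with the tool, the genes tested, the plates and the model terms. It was 20 with DESeq2, 39 with every gene of 1 UMI or more (5 lower) and 5 with wells thinned to 1000 UMIs (1345 genes tested). It was 21 with all 12 plates (1 lower) and 30 with age at tamoxifen as a term (3 lower). Gal and Resp18, which the stray neuron wells held, were among the calls with all 12 plates and with every gene of 1 UMI or more. With the plate series as a term the irradiation difference rests on 1 plate a side, so the calls of that fit are not counted here. Without both plates of the series TM110 to TM115 the count was 4. With wells of 3 or more neuron marker UMIs left out, 12 genes were higher and 1 lower. The last 2 alternatives were chosen after seeing the data. Leaving out 1 plate gave 4 to 18 higher and 0 to 1 lower genes. In the other alternatives 10 to 14 genes were higher and none lower. The lower genes were, by alternative, Slc35a2, Ptx4, Ctgf and, with every gene tested or the age term, Cd14, Gm26737, Olfr1109, Dpysl2 and Rn18s-rs5. All 11 remained called in DESeq2, limma and both other scalings, 10 in the stricter count filter and 9 with no upper UMI limit. Over all these fits Serpina3n remained called (log2 fold change 3.05 to 3.64), and no called gene changed sign. Adamts1 changed sign with the series as a term (-1.11), on 1 plate a side. The causes were not tested.

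The interaction called 1 gene with DESeq2, 1 with no upper UMI limit, 1 with thinned wells, 2 with the pool of mice as a replicate block, and 0 to 3 when 1 pool was left out. The main comparison has no paired form, as irradiated and homeostasis plates come from different mice. The differences in share of wells, in percentage points, were 65.1 and 66.7 for Serpina3n (not thinned, and thinned to 2000 UMIs), 31.9 and 28.1 for Fcgr2b, 19.9 and 19.9 for Slc14a1, 29.8 and 27.9 for Bst2, 32.4 and 26.9 for Npy, 28 and 32.3 for Ggta1, 39.96 and 42.8 for H2-Aa, 42.5 and 38 for Cdkn1a, and 41 for Tmem176b (2000 UMIs only).

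With 150561 to 205844 kept UMIs a plate, 2-fold changes were mostly beyond reach, and genes of few UMIs were untested.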
